A study of Mus musculus with 6 samples.

Results

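The 30 genes described here encode the enzymes of cholesterol synthesis and the proteins that carry, take up, store and export cholesterol in mouse liver. They were chosen by name: 17 synthesis enzymes in pathway order, 2 sterol-carrying proteins, and 11 genes of uptake, storage and efflux. All 30 were found among the 45706 genes of the deposited table and all 30 had enough counts to be tested. The series holds poly(A)-enriched RNA sequencing of 3 liver samples labelled ENTPD-8 knockout (KO 1 to KO 3) and 3 labelled wild type (WT 1 to WT 3), and it addresses the part of NTPDase8, the ectonucleotidase encoded by Entpd8, in liver ischemia. The mice were kept specific pathogen-free at Charles River. The labels state tissue and genotype but not the kind of allele, strain, sex, age, sampling time or any ischemia. They also do not say that a group's libraries came from different animals, and the p-values therefore cover the spread between libraries, which may be technical.

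Hepatocytes build cholesterol from acetyl-CoA through mevalonate, farnesyl diphosphate, squalene and lanosterol. When sterols in the membrane of the endoplasmic reticulum run low, SREBP transcription factors are released and raise transcription of synthesis enzymes and of lipoprotein receptors, and when oxysterols build up, LXR receptors raise transcription of the exporters. The liver also takes cholesterol back from lipoproteins, stores it as esters, loads it onto HDL and secretes it into bile.

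Library totals ran from 40800058 to 46473531 counts in KO livers and from 32768774 to 39929978 in WT livers. Entpd8 had 15, 29 and 52 counts in the KO libraries and 1416, 876 and 2034 in the WT libraries, a log2 fold change of -5.72 ± 0.48 (SE). Hepatocyte markers were abundant in every library, with a summed level of 58562 to 76913 CPM (counts relative to library totals scaled by TMM, per 1e6) in KO livers and 52400 to 68277 CPM in WT livers, and 0 of 6 were called. Kupffer and macrophage markers summed to 55.6 to 66.4 CPM in KO livers, against 96.2 to 221 CPM in WT livers, and 4 of 8 (Clec4f, Vsig4, Cd5l and Csf1r) were lower. All 5 erythroid markers were higher in KO livers (1178 to 1546 CPM, against 368 to 546 CPM in WT livers), as were 2 of 5 biliary markers, 2 of 3 tested B and plasma cell markers and 1 of 6 pericentral markers. None of the sinusoidal, stellate, neutrophil or periportal markers was called. Over all genes tested, 9.8% were called higher and 10.6% lower at an adjusted p under 0.05 in edgeR. The 1 call among 6 pericentral markers is near these shares. The mitochondrially encoded share was 10.9 ± 0.809% in KO and 7.52 ± 0.924% in WT libraries (SD, n = 3 each). The part of these differences in the results on cholesterol genes was not tested, and in bulk tissue fewer cells of a type and less RNA per cell cannot be told apart.

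Many synthesis enzymes were higher in KO livers, while calls among genes of uptake, storage and efflux were near the share of all genes. Of the 17 synthesis enzymes, 12 rose in KO livers and 0 fell, with log2 fold changes of KO over WT from 0.19 to 1.59 and a median of 0.85. Of the 11 uptake, storage and efflux genes, 0 rose and 1, Lrp1, fell, with a median log2 fold change of 0.012. The calls use an adjusted p under 0.05 in edgeR's quasi-likelihood test fitted over 14069 genes. Of these, 9.8% were called higher and 10.6% lower in KO livers, 20.4% in either direction, and their median log2 fold change was -0.024. For the 11 uptake, storage and efflux genes, 0 called higher and 1 called lower is near these shares. Among the 9639 genes with a mean of at least 4 CPM, a level that all 30 cholesterol genes reached, 11.3% were called higher and 11.3% lower. At an unadjusted p under 0.05, 16 synthesis genes were higher and 0 lower, while 0 uptake, storage and efflux genes were higher and 2 (Lrp1 and Lcat) lower. The share of all genes at this unadjusted threshold was not counted, and the shares above do not apply to it. The synthesis count was 15 in DESeq2, 13 in limma voom, 11 with library totals alone and 10 with upper-quartile scaling. Over all genes, DESeq2 called 1895 higher and 1737 lower, and limma voom 1394 higher and 1406 lower. Library totals alone gave 1036 higher and 1570 lower, and upper-quartile scaling 1187 higher and 1742 lower. DESeq2 and limma voom both called 0 uptake, storage and efflux genes higher and 1 lower. Without KO 1 the synthesis count was 7, and it was 9 to 12 without any other 1 library. Over all genes, 385 were then called higher and 218 lower without KO 1, 910 higher and 684 lower without KO 2, and 881 higher and 863 lower without KO 3. Without WT 1 723 genes were called lower, and without WT 3 973, against 1379 higher and 1492 lower with all libraries. The difference between the gene groups was not tested.

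**Figure D1:**
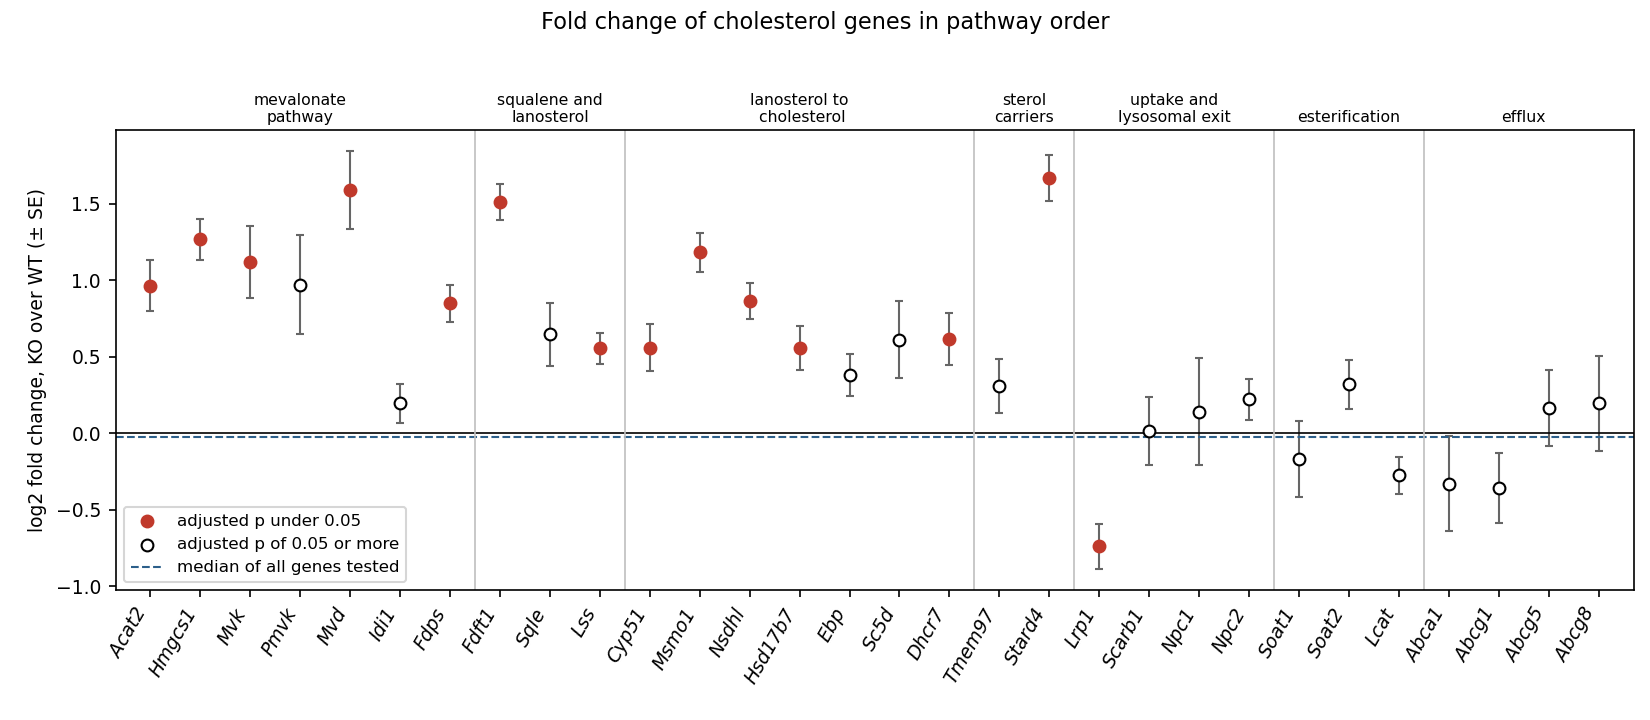
Log2 fold change of KO over WT livers (y axis, ± SE) for the 30 cholesterol genes in pathway order (x axis), filled where the adjusted p was under 0.05 in edgeR, with a dashed line at the median of all genes tested. All 17 synthesis genes lie above 0, whereas the genes of uptake, storage and efflux lie on both sides of it.

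In the mevalonate pathway 5 of 7 enzymes rose, and the 3 KO libraries lay above the 3 WT libraries for all 7. Across all genes tested, the KO libraries lay entirely above the WT libraries for 18.7% and entirely below them for 22% of genes, so that 40.7% of genes did not overlap. Acat2, the cytosolic thiolase that joins acetyl-CoA units, had 73.5, 67.5 and 87.6 CPM in KO livers, against 47.8, 34.6 and 34.8 CPM in WT livers, a log2 fold change of 0.96 ± 0.17 (SE, adjusted p = 0.00940, edgeR). Hmgcs1, the cytosolic HMG-CoA synthase (ENSMUSG00000093930, chromosome 13 from 119690379 to 119708260 on the plus strand of GRCm38), had 457, 446 and 500.2 CPM in KO livers, against 213, 193 and 177 CPM in WT livers. Its log2 fold change was 1.27 ± 0.13 (adjusted p = 0.00227, edgeR), and the lowest KO library was above the highest WT library by more than the spread within either group. It shares 557 exon bases with the antisense gene Gm48342. Mvk, mevalonate kinase, had 21.2, 25.2 and 14.6 CPM in KO livers, against 8.51, 7.89 and 11.7 CPM in WT livers (1.12 ± 0.23, adjusted p = 0.0167, edgeR). KO 3 was the low one of the KO libraries here, and the call was lost without KO 1 (adjusted p = 0.0659) or without WT 1 (adjusted p = 0.0561).

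Mvd, the decarboxylase that yields isopentenyl diphosphate (chromosome 8 from 122433601 to 122443422, minus strand), had the largest fold change among the synthesis enzymes. It had 20.7, 22.7 and 22.6 CPM in KO livers, against 4.33, 9.02 and 8.52 CPM in WT livers, a log2 fold change of 1.59 ± 0.26 (adjusted p = 0.00806, edgeR). The KO libraries were close together and WT 1 was the low one among the WT libraries, without which the log2 fold change was 1.32. Fdps, farnesyl diphosphate synthase, had 307, 341 and 311 CPM in KO livers, against 171, 188 and 174 CPM in WT livers (0.85 ± 0.12, adjusted p = 0.00544, edgeR). The remaining enzymes of this segment did not pass. Pmvk, phosphomevalonate kinase, had 47.2, 55.7 and 56.1 CPM in KO livers, against 41.0, 25.1 and 15.0 CPM in WT livers, and the WT libraries were widely spread (0.97 ± 0.32, adjusted p = 0.0749, edgeR). Without WT 1, the highest of them, Pmvk passed (adjusted p = 0.0187), and it also passed in DESeq2 (adjusted p = 0.0107) and limma voom (adjusted p = 0.0448). Idi1, the isomerase of isopentenyl diphosphate, had 249, 243 and 268 CPM in KO livers, against 229.8, 197 and 237 CPM in WT livers (0.19 ± 0.13, adjusted p = 0.318, edgeR), the smallest difference among the synthesis genes. Counts of Acat2, Idi1 and Fdps were not whole in 5, 6 and 6 of the 6 libraries, to a tolerance of 0.01, and their counts are less certain where reads were divided between similar transcripts. Acat3, a gene related to Acat2, rose with a log2 fold change of 0.42 ± 0.12 (adjusted p = 0.0403, edgeR).

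Squalene is then made and closed into lanosterol, and 2 of the 3 enzymes of these steps rose. Fdft1, squalene synthase and the first enzyme committed to sterols (ENSMUSG00000021273, chromosome 14 from 63145150 to 63179578, minus strand), had 124, 138 and 117 CPM in KO livers, against 47.0, 43.9 and 42.3 CPM in WT livers. Its log2 fold change of 1.51 ± 0.12 had the lowest adjusted p among the 30 genes (adjusted p = 7.75e-04, edgeR), and the groups were far apart relative to their SDs of 10.4 CPM in KO and 2.37 CPM in WT livers. Of its 4227 exon bases, 774 overlap Ctsb on the other strand, and whether strands were kept apart is not stated. Ctsb, the protease cathepsin B, averaged 570.3 CPM in KO and 592 CPM in WT livers, with a log2 fold change of -0.053 ± 0.15 (adjusted p = 0.829, edgeR). Sqle, squalene epoxidase and a rate-controlling step, had 152, 145 and 116 CPM in KO livers, against 92.9, 108 and 63.4 CPM in WT livers. The KO libraries were all above the WT libraries, but the difference did not pass (0.65 ± 0.21, adjusted p = 0.0590, edgeR). It passed without WT 2 (adjusted p = 0.0295), in DESeq2 (adjusted p = 0.0177), without the low-count filter (adjusted p = 0.0406) and with library totals alone (adjusted p = 0.0474). Lss, lanosterol synthase, had 51.1, 52.8 and 52.0 CPM in KO livers, against 37.3, 35.8 and 33.1 CPM in WT livers (0.56 ± 0.10, adjusted p = 0.0110, edgeR), a small difference between tight groups. It did not pass without KO 1 (adjusted p = 0.0627).

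Between lanosterol and cholesterol, 5 of 7 enzymes rose, and the groups did not overlap for 6 of them. Msmo1, the methylsterol monooxygenase, had 221, 235 and 209.8 CPM in KO livers, against 106, 99.5 and 88.2 CPM in WT livers (1.18 ± 0.13, adjusted p = 0.00227, edgeR). Nsdhl, the sterol dehydrogenase that acts with it, had 74.9, 75.8 and 63.2 CPM in KO livers, against 41.6, 38.6 and 37.3 CPM in WT livers (0.86 ± 0.12, adjusted p = 0.00464, edgeR). These demethylation enzymes had the largest differences in this segment, and both passed without any 1 library. Cyp51, the lanosterol demethylase, had 242, 238 and 223 CPM in KO livers, against 193, 146 and 137 CPM in WT livers (0.56 ± 0.16, adjusted p = 0.0397, edgeR). Hsd17b7, a sterol ketone reductase, had 70.5, 65.2 and 70.0 CPM in KO livers, against 37.9, 48.3 and 54.0 CPM in WT livers (0.55 ± 0.14, adjusted p = 0.0317, edgeR). Dhcr7, the last reductase of one branch, had 100.4, 92.6 and 97.4 CPM in KO livers, against 80.5, 51.6 and 57.7 CPM in WT livers (0.61 ± 0.17, adjusted p = 0.0388, edgeR). For each of these the KO libraries were close together and the WT libraries spread. Leaving out KO 1, KO 2, KO 3, WT 2 or WT 3 ended the calls of Cyp51 (adjusted p up to 0.146) and Dhcr7 (adjusted p up to 0.128), and leaving out KO 1, KO 2, KO 3 or WT 1 ended that of Hsd17b7 (adjusted p up to 0.121). Of the 4415 exon bases of Cyp51, 166 overlap Akap9 on the other strand, which fell (-0.58 ± 0.15, adjusted p = 0.0331, edgeR). With upper-quartile scaling Cyp51 (adjusted p = 0.0564) and Dhcr7 (adjusted p = 0.0539) did not pass, and with library totals alone Hsd17b7 (adjusted p = 0.0848) and Dhcr7 (adjusted p = 0.0636) did not.

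Ebp and Sc5d did not pass. Ebp, the sterol isomerase, had 204, 217 and 197 CPM in KO livers, against 177, 163 and 135 CPM in WT livers (0.38 ± 0.14, adjusted p = 0.0873, edgeR), and it passed in DESeq2 (adjusted p = 0.0380). Sc5d, the sterol desaturase, had 355, 369.6 and 328 CPM in KO livers, against 333, 165 and 193 CPM in WT livers (0.61 ± 0.25, adjusted p = 0.123, edgeR). Sc5d was the single synthesis gene whose groups overlapped, through WT 1, and without WT 1 it passed with a log2 fold change of 0.97 (adjusted p = 0.0170). Summed over the 17 synthesis genes, the level was 2771, 2831 and 2733 CPM in KO livers, against 1862, 1554 and 1499 CPM in WT livers, a ratio of 1.70. WT 1 was the highest WT library for 11 of the 17 genes (64.7%), against 30.7% of all genes tested.

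**Figure D2:**
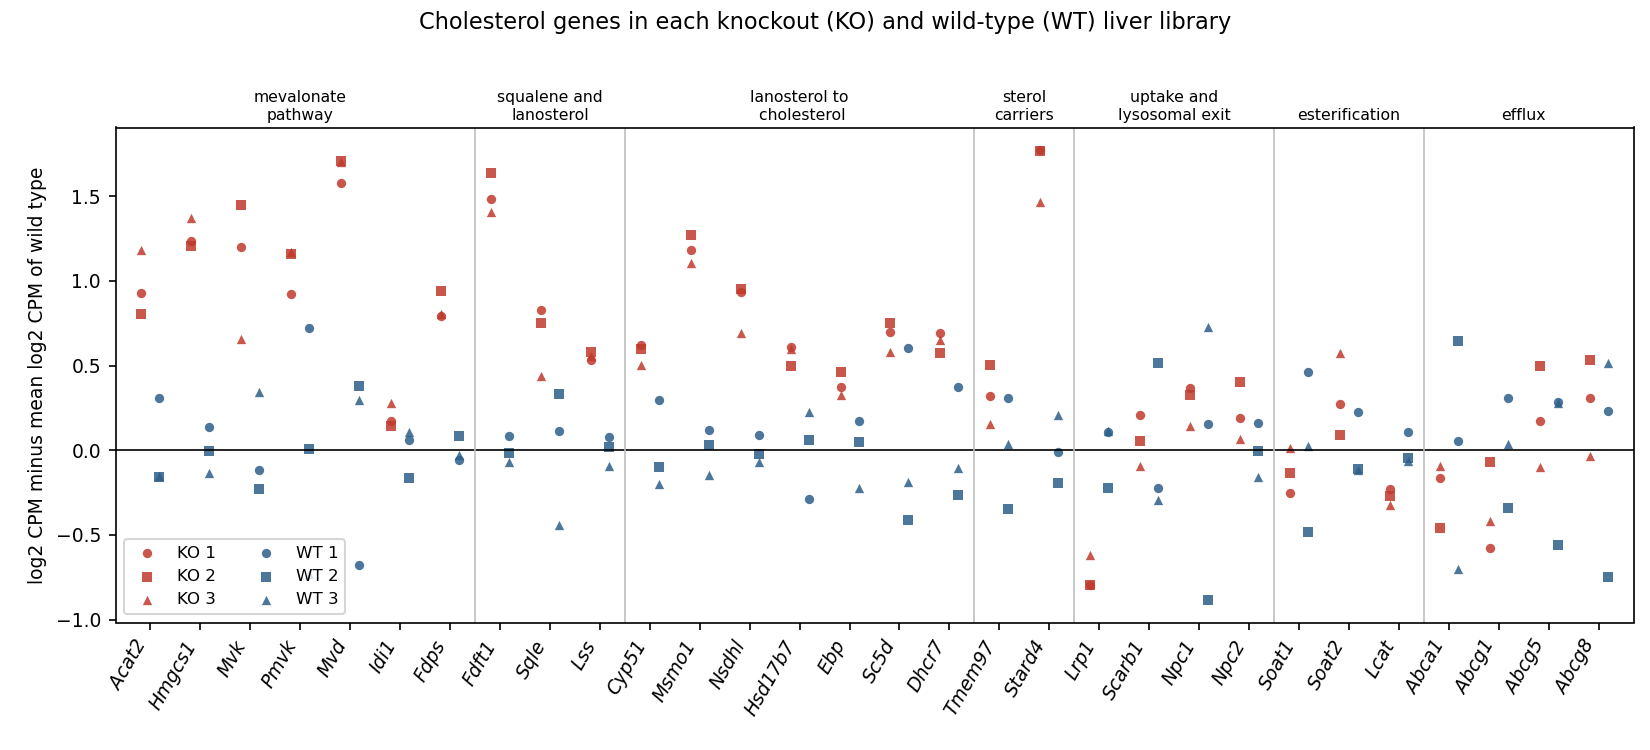
Log2 CPM of each library minus the mean log2 CPM of the 3 WT libraries (y axis) for the 30 genes (x axis), KO in red to the left of WT in blue, with symbols for replicate numbers. KO points lie above WT points for 16 of 17 synthesis genes and overlap them for 9 of 11 genes of uptake, storage and efflux.

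Upstream sequence is shown for 5 synthesis enzymes that rose and for Lrp1, which fell, to set their promoters side by side. Among genes with a sequence available, they are the 6 of lowest adjusted p that passed and held a motif match in an upstream stretch. That stretch had at least 100 bases free of exons. Fdft1, Fdps and Stard4 also passed but had no sequence available, and so were not searched. Sequences are from RefSeq (GRCm38.p6), run 5′ to 3′ on the gene's strand and hold no annotated exon, with matches to the searched motifs in capitals. The stretches are chr13:119690101-119690350 (plus strand) for Hmgcs1, chrX:72918412-72918520 (plus) for Nsdhl, chr8:122443423-122443672 (minus) for Mvd, chr17:12960748-12960975 (minus) for Acat2, chr10:76531355-76531587 (plus) for Lss and chr10:127621149-127621398 (minus) for Lrp1.
Acat2: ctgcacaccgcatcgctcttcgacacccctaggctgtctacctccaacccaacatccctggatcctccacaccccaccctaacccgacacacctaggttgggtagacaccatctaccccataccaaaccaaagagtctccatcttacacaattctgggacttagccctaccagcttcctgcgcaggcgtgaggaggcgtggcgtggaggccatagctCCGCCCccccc
Hmgcs1: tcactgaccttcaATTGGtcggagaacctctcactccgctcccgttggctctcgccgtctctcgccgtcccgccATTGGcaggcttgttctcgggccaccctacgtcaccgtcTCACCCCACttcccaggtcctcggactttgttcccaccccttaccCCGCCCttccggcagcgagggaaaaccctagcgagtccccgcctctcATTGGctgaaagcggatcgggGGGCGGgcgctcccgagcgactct
Nsdhl: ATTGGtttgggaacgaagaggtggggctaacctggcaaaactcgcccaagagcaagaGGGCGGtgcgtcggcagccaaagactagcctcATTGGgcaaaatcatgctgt
Mvd: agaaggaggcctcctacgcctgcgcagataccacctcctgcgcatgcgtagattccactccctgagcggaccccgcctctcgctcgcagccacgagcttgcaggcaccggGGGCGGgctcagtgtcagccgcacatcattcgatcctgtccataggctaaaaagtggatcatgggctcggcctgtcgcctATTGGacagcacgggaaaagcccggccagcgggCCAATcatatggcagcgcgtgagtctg
Lss: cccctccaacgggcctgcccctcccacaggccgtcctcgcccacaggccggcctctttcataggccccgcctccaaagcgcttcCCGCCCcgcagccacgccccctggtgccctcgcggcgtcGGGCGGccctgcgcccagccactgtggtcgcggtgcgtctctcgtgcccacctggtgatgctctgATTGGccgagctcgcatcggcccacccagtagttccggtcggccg
Lrp1: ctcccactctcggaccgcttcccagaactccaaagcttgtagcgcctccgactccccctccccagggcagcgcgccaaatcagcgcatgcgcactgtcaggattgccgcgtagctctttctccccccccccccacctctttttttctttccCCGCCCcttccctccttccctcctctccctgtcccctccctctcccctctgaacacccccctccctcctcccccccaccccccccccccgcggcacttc
The motifs were TCACNCCAC, a sterol regulatory element bound by SREBP factors, CCAAT, bound by NF-Y, GGGCGG, bound by Sp1, and the DR4 direct repeat bound by LXR, each on both strands in the 250 bases before a start. In Hmgcs1 the letters TCACCCCAC began 137 bases before the start, the single match to the sterol element among the 22 of 30 genes with a sequence in the table. The stretches shown hold 3 matches to CCAAT in Hmgcs1, 2 each in Nsdhl and Mvd, 1 in Lss and 0 in Acat2 and Lrp1. In Acat2, which rose, and in Lrp1, which fell, the capitals mark a single GGGCGG match. CCAAT was found for 13 of 14 synthesis genes (92.9%), against 4 of 7 uptake, storage and efflux genes (57.1%) and 37.5% of the 27025 genes in the table. At least 2 CCAAT matches were found for 9 of the 14 synthesis genes, against 11.5% of all genes. GGGCGG was found for 13 of 14 synthesis genes, 3 of 7 uptake, storage and efflux genes (42.9%) and 35.4% of all genes. The sterol element was found for 1.22% of all genes, and DR4 for 0 of the 22 and 4 of all 27025 genes. In these 22 genes, 0 pairs of matches to different motifs overlapped. The counts describe letters in a short window and not binding.

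Of the 2 sterol carriers, Stard4 rose and Tmem97 did not pass. Stard4, a soluble protein that moves sterol between membranes (ENSMUSG00000024378, chromosome 18 from 33199355 to 33213862, minus strand), had the largest log2 fold change of the 30 genes. It had 143, 142 and 116 CPM in KO livers, against 41.5, 36.6 and 48.2 CPM in WT livers (1.67 ± 0.15, adjusted p = 0.00136, edgeR), and no alternative ended the call. Tmem97, a membrane protein of the endoplasmic reticulum that interacts with the lysosomal cholesterol transporter NPC1, had 72.8, 82.7 and 65.0 CPM in KO livers, against 72.1, 45.9 and 59.9 CPM in WT livers. Its groups overlapped (0.31 ± 0.18, adjusted p = 0.247, edgeR). Like those of Acat2, Idi1 and Fdps, its counts were not whole, in 4 libraries to a tolerance of 0.01.

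Among uptake genes, the endocytic receptor Lrp1 was lower in KO livers. Lrp1, which clears apolipoprotein E-rich remnants (ENSMUSG00000040249, chromosome 10 from 127538161 to 127621148, minus strand), had 369.5, 369 and 417 CPM in KO livers, against 691, 548 and 694 CPM in WT livers. The groups did not overlap, and the log2 fold change was -0.74 ± 0.15 (adjusted p = 0.0151, edgeR). It did not pass without KO 1 (adjusted p = 0.0892) or KO 2 (adjusted p = 0.0501), with log2 fold changes of -0.71 in both cases. In the alternatives that kept all libraries the call held, but the log2 fold change ranged from -0.82 to -0.52. Macrophages also carry this receptor, and 4 of 8 Kupffer and macrophage markers were called lower in the same KO livers. The summed level of all 8 was 55.6 to 66.4 CPM, against 96.2 to 221 CPM in WT livers. The remaining markers of the 8 did not pass. Marco (-1.62 ± 0.51, adjusted p = 0.0615, edgeR) and Adgre1 (-1.06 ± 0.34, adjusted p = 0.0610, edgeR) had negative log2 fold changes. So did Timd4 (-0.76 ± 0.42, adjusted p = 0.234, edgeR), whereas Cd68 did not (0.075 ± 0.15, adjusted p = 0.763, edgeR). The part of macrophages in the Lrp1 result was not tested.

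Scarb1, Npc1 and Npc2 did not pass. Scarb1, the HDL receptor that takes up cholesteryl esters, had 188, 169.8 and 153 CPM in KO livers, against 140.1, 233 and 133 CPM in WT livers (0.012 ± 0.22, adjusted p = 0.978, edgeR). Npc1, which moves cholesterol out of lysosomes, had 79.4, 77.3 and 68.1 CPM in KO livers, against 68.6, 33.4 and 102 CPM in WT livers (0.14 ± 0.35, adjusted p = 0.811, edgeR). For both genes the KO values lay inside the range of the WT values, and WT 2 was the highest WT library for Scarb1 and the lowest for Npc1. Npc1 shares 511 exon bases with Rmc1 on the other strand, whose log2 fold change was 0.20 ± 0.14 (adjusted p = 0.353, edgeR). Npc2, the soluble lysosomal protein that hands cholesterol to NPC1, had 63.3, 73.4 and 57.9 CPM in KO livers, against 62.0, 55.2 and 49.7 CPM in WT livers (0.22 ± 0.13, adjusted p = 0.276, edgeR).

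No esterification gene passed. Soat2, the acyltransferase that makes cholesteryl esters in hepatocytes, had 24.9, 22.0 and 30.7 CPM in KO livers, against 24.1, 19.1 and 19.0 CPM in WT livers (0.32 ± 0.16, adjusted p = 0.193, edgeR). Soat1, the acyltransferase of most other cells, was at 4.35, 4.74 and 5.24 CPM in KO livers, against 7.14, 3.72 and 5.28 CPM in WT livers (-0.17 ± 0.25, adjusted p = 0.664, edgeR). Both overlapped between the groups. Lcat, the secreted enzyme that esterifies cholesterol on HDL, had 227, 220.1 and 212 CPM in KO livers, against 287, 258 and 255 CPM in WT livers. The KO libraries all lay below the WT libraries, with a log2 fold change of -0.28 ± 0.12 that did not pass (adjusted p = 0.136, edgeR).

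The exporters did not pass either. Abca1, which loads cholesterol onto lipid-poor apolipoprotein A-I, had 483, 394 and 508 CPM in KO livers, against 563, 848 and 333 CPM in WT livers (-0.33 ± 0.31, adjusted p = 0.481, edgeR). The WT values enclosed the KO values, and without WT 2 the log2 fold change was 0.043. Abcg1, an exporter to mature HDL that macrophages express strongly, had 3.77, 5.36 and 4.21 CPM in KO livers, against 6.94, 4.43 and 5.75 CPM in WT livers (-0.36 ± 0.23, adjusted p = 0.295, edgeR). Of the 8 macrophage markers given with Lrp1, 4 were called lower in the same livers, and the part of macrophages in the level of Abcg1 was not tested.

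Abcg5 and Abcg8 form an obligate heterodimer that secretes sterols into bile, and their genes lie head to head on chromosome 17 with RefSeq starts 110 bases apart and 82 exon bases shared on opposite strands. Abcg5 had 43.8, 55.0 and 36.4 CPM in KO livers, against 47.4, 26.4 and 47.1 CPM in WT livers (0.16 ± 0.25, adjusted p = 0.679, edgeR). Abcg8 had 38.9, 45.4 and 30.6 CPM in KO livers, against 36.9, 18.7 and 44.9 CPM in WT livers (0.19 ± 0.31, adjusted p = 0.692, edgeR). KO 2 was the high KO library and WT 2 the low WT library for both genes, and the log2 ratio of Abcg8 to Abcg5 CPM, uncorrected for length, was -0.17, -0.28 and -0.25 in KO and -0.36, -0.50 and -0.070 in WT libraries. Without WT 2 the log2 fold changes were -0.069 for Abcg5 and -0.095 for Abcg8, and without KO 2 that of Abcg5 was -0.0044.

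**Figure D3:**
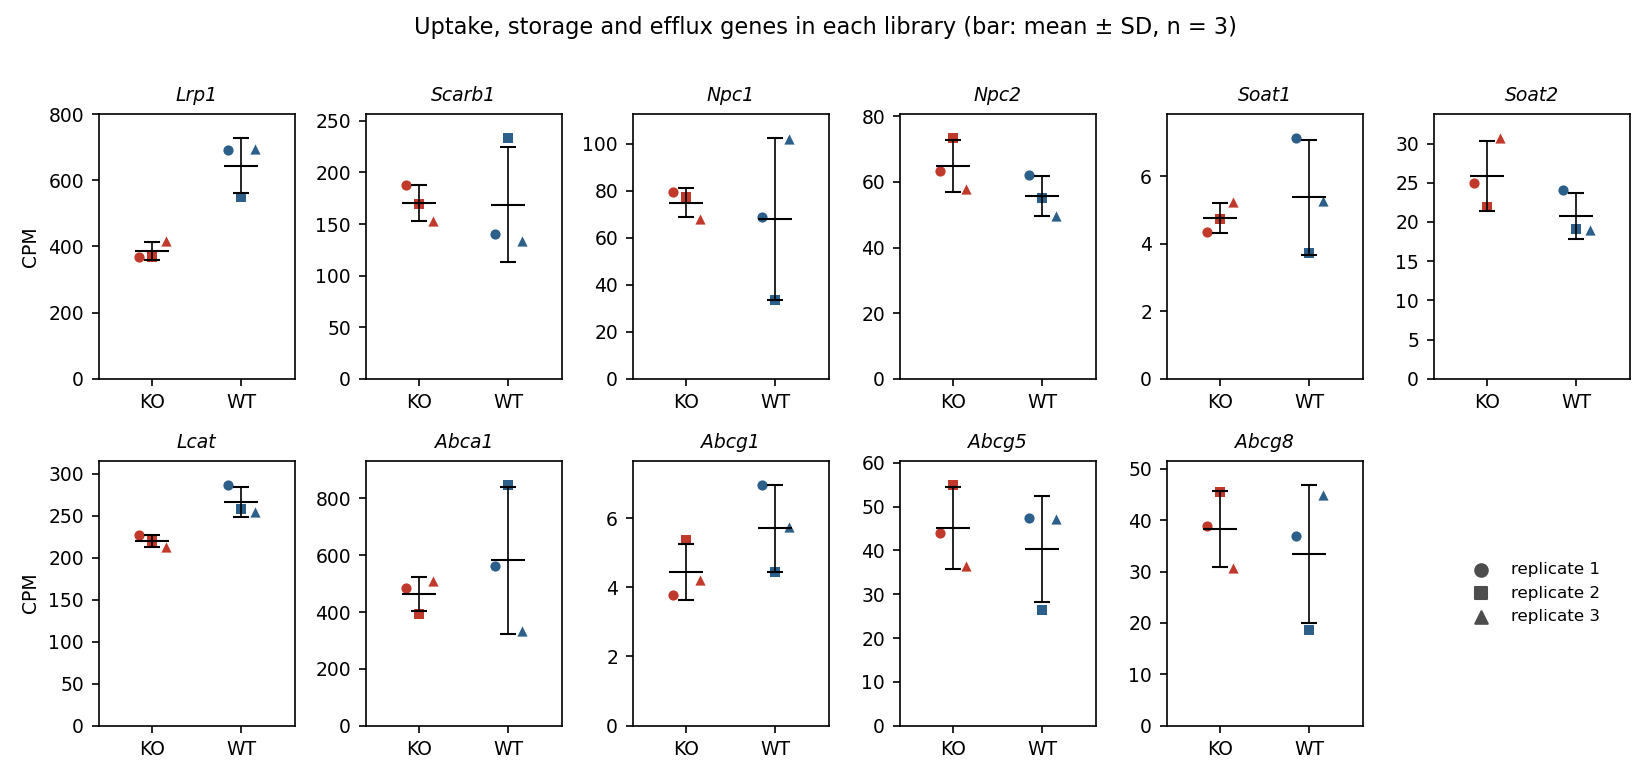
CPM in each library (y axis, from 0) for the 11 genes of uptake, storage and efflux, KO left of WT, with bars for mean ± SD (n = 3). The KO and WT libraries are apart for Lrp1 and Lcat, and WT 2 is the lowest WT library for Npc1, Abcg5 and Abcg8 and the highest for Scarb1 and Abca1.

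For most cholesterol genes the 3 WT libraries were spread more widely than the 3 KO libraries. The SD of log2 CPM was larger in WT than in KO livers for 13 of 17 synthesis genes and 9 of 11 uptake, storage and efflux genes, against 61.6% of all genes tested. Its median over synthesis genes was 0.083 in KO and 0.26 in WT livers, and over uptake, storage and efflux genes 0.17 in KO and 0.45 in WT livers. Over all genes tested it was 0.18 in KO and 0.23 in WT livers. WT 2 was the WT library farthest from the middle one for 7 of the 11 uptake, storage and efflux genes (63.6%), against 2 of 17 synthesis genes (11.8%) and 40.7% of all genes tested. These SDs rest on 3 libraries each and were not tested. The summed level of the 11 genes was 1526, 1437 and 1524 CPM in KO livers, against 1934, 2047 and 1688 CPM in WT livers, mostly from Lrp1 and Abca1.

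Levels were compared between genes per kilobase of the principal transcript. In KO livers Fdps (231), Lcat (164) and Hmgcs1 (135) had the highest CPM per kilobase, and in WT livers Lcat (198), Fdps (129) and Ebp (90.9). Hmgcs1 had 56.1 CPM per kilobase in WT livers and was seventh there in the order. Mvk and Mvd, with 12.3 and 12.5 CPM per kilobase in KO livers and 5.65 and 4.15 in WT livers, were the lowest synthesis genes in WT livers. Soat1 and Abcg1 were the lowest of all 30, at 0.570 and 0.762 CPM per kilobase in KO livers and 0.642 and 0.979 in WT livers. Idi1 and Ebp, 2 of the 5 synthesis genes that did not pass, were among the 4 highest of the 30 in WT livers.

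**Figure D4:**
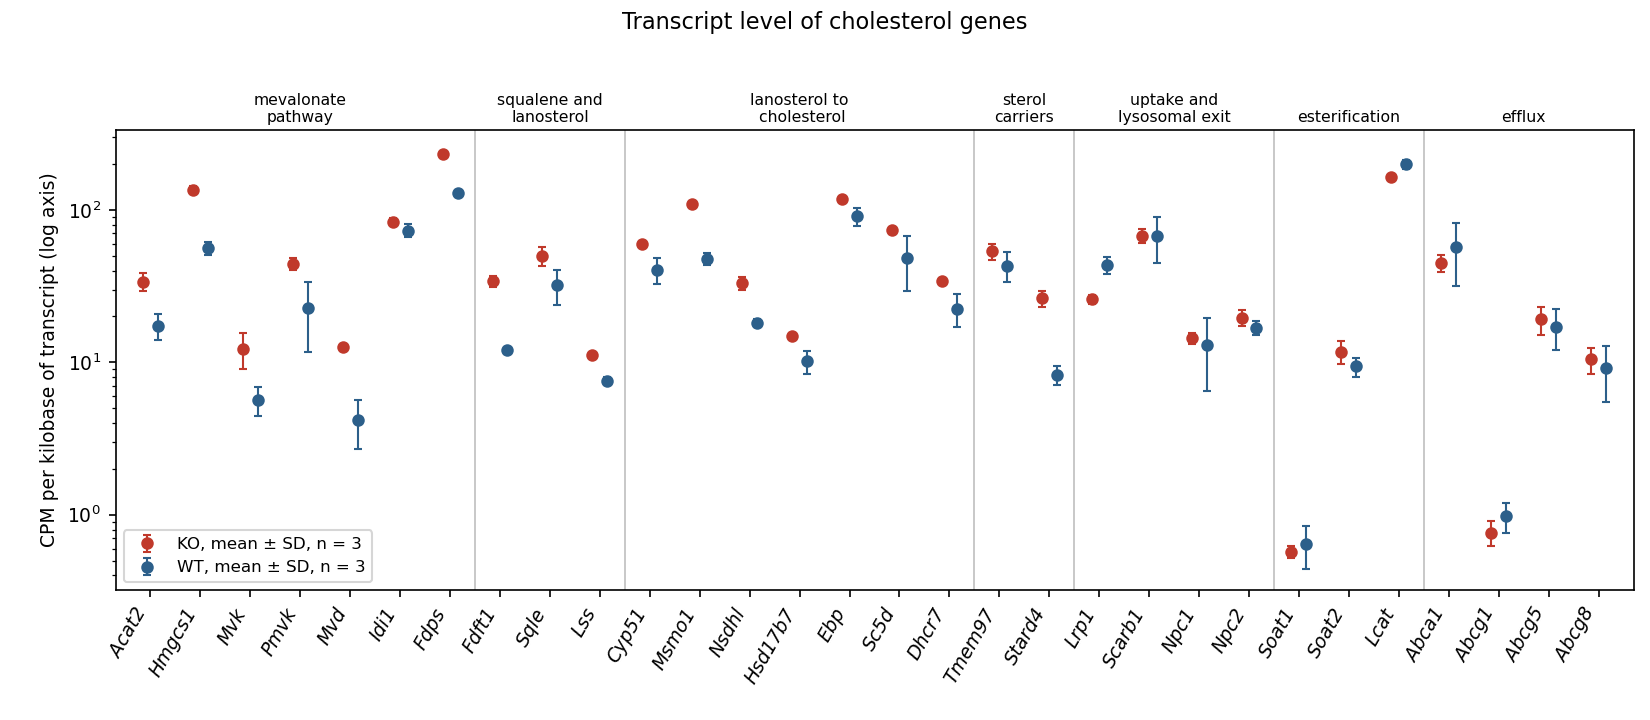
CPM per kilobase of transcript (log y axis, mean ± SD, n = 3) for the 30 genes (x axis), KO left of WT. Synthesis enzymes span from Lss to Fdps in KO livers and from Mvd to Fdps in WT livers, and Soat1 and Abcg1 lie lowest in both genotypes.

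Other genes of the same pathways were counted in lists chosen with results of these data known. Over all genes tested, 9.8% were called higher and 10.6% lower, and the lists were not tested against these shares. Of 19 regulators of sterol synthesis, 4 rose and 1 fell. They included Srebf2, the SREBP gene that mainly drives sterol synthesis, with 55.3, 51.6 and 56.1 CPM in KO livers, against 29.4, 39.0 and 39.5 CPM in WT livers (0.59 ± 0.14, adjusted p = 0.0222, edgeR). Insig1, which retains SREBP in the endoplasmic reticulum, averaged 419.7 ± 65.4 CPM in KO and 112 ± 16.2 CPM in WT livers (SD, n = 3 each), a log2 fold change of 1.91 ± 0.17 (SE, adjusted p = 0.00136, edgeR). Erlin2, a membrane protein of the endoplasmic reticulum, had 18.7, 16.4 and 20.9 CPM in KO livers, against 26.0, 22.8 and 28.2 CPM in WT livers (-0.46 ± 0.14, adjusted p = 0.0481, edgeR). Of 13 other synthesis and isoprenoid genes, 2 rose and 1 fell, with the sterol reductase Tm7sf2 higher (0.67 ± 0.18, adjusted p = 0.0379, edgeR) and the farnesyltransferase subunit Fntb lower (-0.85 ± 0.20, adjusted p = 0.0222, edgeR).

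Of 11 tested genes of lipoprotein uptake and lysosomes, 3 rose and 0 fell, among them hepatic lipase Lipc (0.76 ± 0.16, adjusted p = 0.0183, edgeR). Of 11 tested sterol carriers and contact site proteins, Gramd1b rose (1.23 ± 0.27, adjusted p = 0.0183, edgeR) and Vps13c fell (-0.92 ± 0.14, adjusted p = 0.00572, edgeR). For this list, 1 gene in each direction is near the shares called over all genes. Of 6 ester hydrolysis genes, the carboxylesterases Ces1f (0.82 ± 0.21, adjusted p = 0.0295, edgeR) and Ces1g (1.09 ± 0.23, adjusted p = 0.0165, edgeR) rose. Nceh1, a cholesteryl ester hydrolase known from macrophages, fell (-0.74 ± 0.18, adjusted p = 0.0272, edgeR). Of 8 other LXR targets, 2 rose and 0 fell, the phospholipid remodelling enzyme Lpcat3 (0.76 ± 0.11, adjusted p = 0.00557, edgeR) and the SREBP gene Srebf1 (2.51 ± 0.16, adjusted p = 3.86e-04, edgeR). Srebf1 is also counted among the regulators that rose, so the same call stands in both lists. Abca1, Abcg1, Abcg5 and Abcg8, which LXR also controls, did not pass. Reads of Ces1f and Ces1g can be shared with related carboxylesterase genes.

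**Figure D5:**
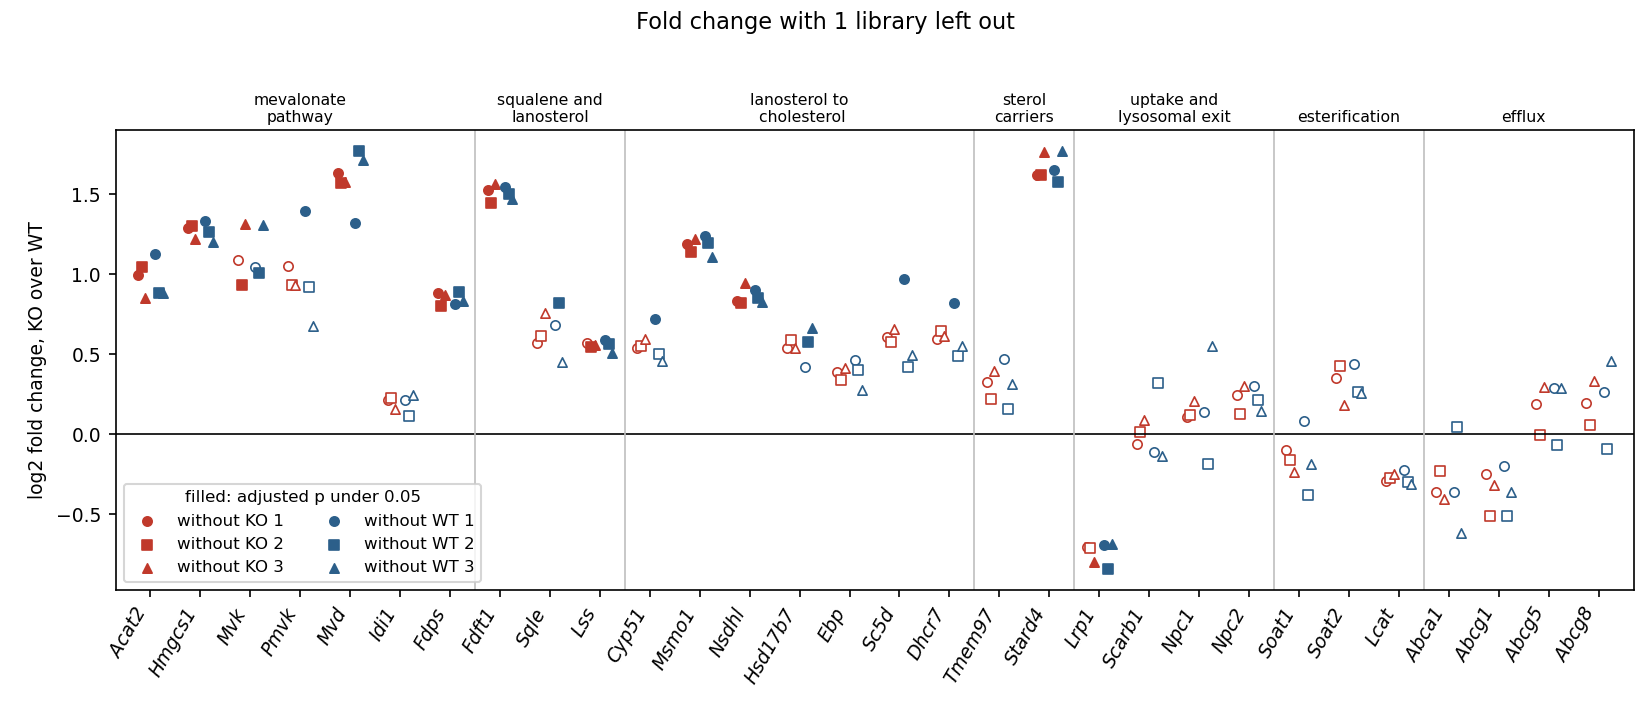
Log2 fold change of KO over WT (y axis) for the 30 genes (x axis) when 1 library is left out, red for KO and blue for WT, filled where the adjusted p was under 0.05 in edgeR. Acat2, Hmgcs1, Mvd, Fdps, Fdft1, Msmo1, Nsdhl and Stard4 passed in all 6 cases, and of the uptake, storage and efflux genes Lrp1 passed in 4 of 6 cases and the others in 0.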

How the data were processed

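Per the labels' protocols, poly(A) RNA was enriched and libraries were built with NEBNext kits. Per the submitters' processing notes, Trim Galore, STAR and Salmon were used with GRCm38. Their versions, order and settings and the annotation are not stated there. The authors deposited unscaled expected counts per gene, with 1 column per library. Between 8.38% and 9.32% of values per library were not whole. Samples were grouped by their titles.

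Symbols, positions and transcript lengths came from GENCODE M21 (GRCm38), with the longest APPRIS principal transcript as length. Counts were rounded, filtered with filterByExpr, scaled by TMM and tested with edgeR 4.0.16 in R 4.3.3 (glmQLFit, robust), two-sided, with genotype as the only term and Benjamini-Hochberg adjustment across 14069 genes and a threshold of 0.05. The common dispersion was 0.0461. SE was obtained by dividing the absolute log2 fold change by the root of the F statistic. SDs of log2 CPM used a prior count of 2. The members and lists were chosen with earlier results of these data known. All 30 members were described, and up to 6 genes of each other list with the lowest p could be named. Some genes that met this rule are not reported here. Promoters shown were those of members that had a sequence available, passed and held a searched motif. The motif lay in a stretch of at least 100 bases without annotated exons. The 6 of lowest adjusted p were shown, none on chromosome 18. The alternatives tried were scaling by RLE, by upper quartile or by library totals, other filters, DESeq2 1.42.0, limma 3.58.1 voom, no robust estimation, a replicate block, removal of the length trend (lowess span 0.5), leaving out mitochondrial and hemoglobin genes, a threshold of 0.1 and leaving out each library. The level of 4 CPM was chosen after the data were seen. The fit was tested on simulated counts. It called 37 of 98 genes simulated with a 2-fold rise, 4 of 100 with a 1.5-fold rise and 6 of 13547 unchanged genes. Only 100 genes were changed per fold, far fewer than were called in the data, and they were drawn from tested genes of any level. These simulated shares therefore do not give the power for the 30 genes. A gene that did not pass may still differ. The chi-square per gene between libraries of a group was 34.1 to 139, far above counting noise, and each library was kept as its own sample. With 3 libraries per group an exact permutation test cannot go below 0.1, so none was used.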

Additional observations from a re-analysis of the deposited data

How the results depend on the processing

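Over the alternatives, 489 of 540 values of single genes kept direction and call, 26 lost and 13 gained a call, and 12 changed sign, all of them in genes that were not called. The sign changes were those of Scarb1 with upper-quartile scaling (-0.036), library totals (-0.053) or 1 library left out (-0.14 to 0.32), Soat1 with the length trend removed (0.0075) or 1 library left out (-0.38 to 0.083), and, with 1 library left out, Npc1 (-0.19 to 0.55), Abca1 (-0.62 to 0.043), Abcg5 (-0.069 to 0.30) and Abcg8 (-0.095 to 0.46). With 1 library left out, 7 to 12 synthesis genes were called higher, 0 uptake, storage and efflux genes higher and 0 to 1 lower, and the median log2 fold changes were 0.68 to 0.90 for synthesis and -0.14 to 0.086 for uptake, storage and efflux. Over all genes, 385 to 1390 were called higher and 218 to 1690 lower in those fits, against 1379 and 1492 with all libraries, and fewer samples were used. With a threshold of 0.1, 2249 genes were called lower. Same-numbered libraries did not deviate together (correlations of -0.076, 0.013 and -0.085). No pairing by number was seen, though so few libraries cannot exclude one. With the replicate block 807 genes were called higher and 661 lower, 10 synthesis genes were called higher and 1 uptake, storage and efflux gene lower. The block ended the calls of Mvk (adjusted p = 0.0622), Cyp51 (adjusted p = 0.0548) and Hsd17b7 (adjusted p = 0.0624) in edgeR and added that of Sqle (adjusted p = 0.0407). The median log2 fold change of all genes lay between -0.10 and 0.017 across settings. Among the cholesterol genes described, Soat1 and Abcg1 had the lowest mean CPM in both genotypes, with 148 to 249 counts per KO library and 145 to 259 counts per WT library. The part of sequencing depth in the precision of single genes was not tested. The cause of the changes in sign and call was not tested either.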
